A study of Vitis vinifera with 36 samples.

Results

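MYB proteins bind DNA through short helical repeats, and the number and spacing of the repeats separates the plant families. R2R3 proteins carry a pair of repeats and steer phenylpropanoid metabolism, wax and suberin deposition and cell fate. Single-repeat proteins include clock components and small inhibitors that compete with R2R3 proteins for their bHLH partners, while the related GARP and trihelix proteins take part in cytokinin signalling, phosphate response, organ polarity, chloroplast development and cell growth. The genes described here were those of the read count table whose Pfam annotation named a Myb-like DNA-binding domain. Left out were named regulators of stilbene synthesis, berry colour, tannins and flavonols, VIT_14s0066g01090 (MYB24) and genes of the KEGG pathway Circadian rhythm. What follows therefore does not cover every MYB gene of the berry. The Pfam term was carried by 246 of 27751 genes, and 237 remained after 8 were left out by identifier and 1 by pathway. By annotation, 128 of the 237 were R2R3 or 3R proteins, 47 GARP proteins, 28 single-repeat proteins, 9 telomere-repeat binding proteins, 6 trihelix proteins and 15 chromatin, splicing or other proteins, and 4 could not be classified.

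The libraries were made from berries of 3-year-old vines of ‘Summer Black’, the parent, and of its bud sport ‘Nantaihutezao’, both grown in a plastic film greenhouse under normal management. The sample labels call the parent ‘Sanbenti’ and the bud sport ‘11-06-25’, so the names were matched by these roles. Berries were taken from veraison (S5) to ripening (S10), 7 days apart, and each cultivar and stage had 3 replicates (a, b and c), which gave 36 libraries. A bud sport is a shoot that differs from the vine it arose on and is propagated as a clone, so the comparison is of 1 clone with its parent. The paper describes this bud sport as maturing earlier than its parent. Libraries of the same stage may thus differ in ripening state as well as in cultivar, and the design cannot tell these apart. The labels give berries and the methods give pericarp as the source of RNA. The methods call the replicates biological but do not say whether they came from separate vines, so the tests measure the spread between these samples, which may be partly technical.

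The libraries held 15323095 to 20469617 reads assigned to genes. No pair of replicates agreed within sampling noise. Replicate a of ‘Summer Black’ stood apart from its group at S9 (chi-square per degree of freedom against b and c 25.4 and 28.9, with 4.78 between b and c) and at S8 (16.8 and 18.8, with 2.83 between b and c). Without it, 8 of the 10 MYB-domain genes called at S8 and 8 of the 9 called at S9 were still called with the same sign, and the 3 calls lost are named with their genes. All other replicate pairs lay between 2.29 and 11.9. UDP-glucose flavonoid glucosyltransferase (UFGT), a marker of coloured skin, was at 365 to 394 CPM (read counts scaled to library size) in ‘Nantaihutezao’ at S5 and at 7.83 to 8.94 CPM in ‘Summer Black’. From S7 on UFGT was higher in ‘Summer Black’, with 600 to 638 CPM against 281 to 298 CPM in ‘Nantaihutezao’ at S10. The 25 chlorophyll-binding protein genes summed to 1141 to 1245 CPM in ‘Nantaihutezao’ at S5 against 1651 to 1656 in ‘Summer Black’, and to 872 to 917 against 547 to 556 at S10. Thaumatin family genes, of which 24 of 26 had counts, summed to 1050 to 1149 CPM in ‘Nantaihutezao’ and 496 to 542 in ‘Summer Black’ at S5. Seed storage genes, of which 5 of 9 had counts, never summed to more than 25.5 CPM. These markers differed between the cultivars, UFGT and the chlorophyll-binding genes with an order that changed over the stages. The part of the markers in the differences below was not tested. In bulk tissue, fewer cells of a type and less RNA per cell cannot be told apart.

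Many of the MYB-domain genes were weakly expressed in the berry. Of the 237 genes, 47 had no count in any library, and 141 had enough counts to be tested between the cultivars at 1 stage or more, 98 of them at all 6 stages. Levels of different genes were compared as FPKM, which is scaled to transcript length. A mean of at least 10 FPKM over the 36 libraries was reached by 62 genes, and 132 lay below 1 FPKM. The highest mean, 195 FPKM, belonged to VIT_18s0001g09850, whose best Swiss-Prot match is MYB44, a regulator of abscisic acid response and stomatal closure in Arabidopsis. Of the 5 genes with the most reads, 3 were trihelix genes. These were VIT_14s0030g01860 (best match GTL2) at 110 FPKM, VIT_18s0072g00670 (GT-2, a protein binding light-responsive promoters) at 93.3 FPKM and VIT_02s0025g03220 (GTL1, a repressor of cell growth in Arabidopsis trichomes) at 62.7 FPKM. The others were VIT_05s0077g01480 (ARR1, a cytokinin response regulator in Arabidopsis) at 70.2 FPKM and VIT_05s0020g01780 (the ATPase chain of a chromatin-remodeling complex) at 45.8 FPKM. None of these 5 genes passed the fold threshold between the cultivars at any stage in edgeR's test, although VIT_02s0025g03220 had an FDR under the threshold at all 6 stages, with log2 fold changes of 0.31 to 0.67.

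The question of the cultivar comparison was which of these regulators differed between bud sport and parent at the same stage. A gene was called when its false discovery rate (FDR, Benjamini-Hochberg over all genes tested at that stage) was under 0.05 and its absolute log2 fold change, ‘Nantaihutezao’ minus ‘Summer Black’, was over 1. Of the 237 genes, 51 were called at 1 stage or more. These were 36.2% of the 141 tested, against 26.2% of all 16510 genes tested at some stage. At some stage 38 (27.0%) were lower and 15 (10.6%) higher, with 2 in both counts, against 15.6% and 13.1% of all genes. Lower genes were the larger group from S5 to S8 and at S10, but not at S9, which is the order that all genes showed too. Of the 51 genes, 30 were called at a single stage, and the matching share of all genes was not computed.

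**Figure D1:**
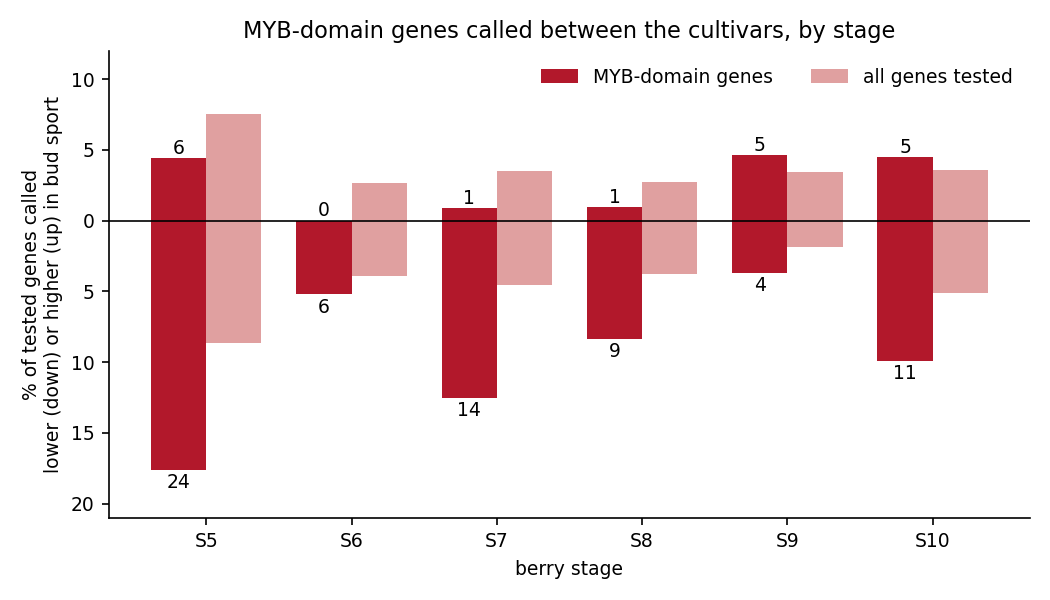
Share of tested MYB-domain genes (dark bars, with the number of genes) and of all tested genes (light bars) that were higher (upward) or lower (downward) in ‘Nantaihutezao’, in percent, by berry stage. At S5 the 24 lower genes made up 17.6% of the 136 tested, against 8.63% of all genes.

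At S5, 6 of 136 tested genes were higher and 24 were lower in ‘Nantaihutezao’. These were 4.41% and 17.6% of those tested, against 7.51% and 8.63% of all 15848 genes tested. At S6, 115 genes were tested, and none was higher and 6 (5.22%) lower, against 2.69% and 3.89% of all genes. For the direction without a call at S6, 29 genes were higher at an unadjusted p under 0.05 in edgeR, none of them past the fold threshold, and DESeq2 also called 0. At S7, 1 gene was higher and 14 (12.5%) were lower of 112 tested, against 3.47% and 4.55% of all genes. The S7 counts became 9 lower without replicate a of ‘Summer Black’ and 2 higher without replicate b of ‘Nantaihutezao’. At S8, 1 was higher and 9 (8.33%) were lower of 108, against 2.71% and 3.76%. Without replicate a of ‘Summer Black’, the S8 counts were 0 higher and 9 lower. The count of lower genes was 16 with all 36 libraries in 1 fit and 2 with glmTreat, which tests against a fold change of 2. VIT_11s0016g01310 lost its S8 call without replicate a of ‘Summer Black’ (log2 fold change -1.47, FDR 0.0443, and -1.44, FDR 0.0925, without it), and was named after its values were seen.

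At S9, 5 of 108 genes (4.63%) were higher and 4 (3.7%) were lower, against 3.44% and 1.85% of all genes. Without replicate a of ‘Summer Black’ the S9 counts were 6 and 5. Leaving out replicate a of ‘Nantaihutezao’ left 3 higher and 2 lower, and 2 were also lower without its replicate b or c. Among 111 genes tested at S10, 5 (4.5%) were in the higher and 11 (9.91%) in the lower group, against 3.59% and 5.1%, and 3 were higher without replicate b of ‘Nantaihutezao’. Over the tested genes of the group, the median cultivar difference was -0.22 (log2) at S5, with -0.02 over all genes, and lay between -0.10 and 0.08 at the later stages. Every called gene had the 3 libraries of one cultivar on one side of those of the other. So had 95 of the 136 genes tested at S5 and 65 of the 111 tested at S10, called or not. Part of the calls rested on genes that had under 10 counts in every library of one cultivar and so entered the test through the other: 9 of the 30 called genes at S5, 1 of 6 at S6, 3 of 15 at S7, 3 of 10 at S8, 3 of 9 at S9 and 6 of 16 at S10. Of the genes that entered in this way, 9 of 9 were called at S5, 1 of 1 at S6 and 3 of 3 at S7. At S8 3 of 4, at S9 3 of 3 and at S10 6 of 8 were called. Such entry nearly sets the call in advance, and the shares of the group and of all genes include such genes. The 3 at S9 were VIT_07s0005g01950, VIT_01s0011g03730 and VIT_12s0028g00980, all called higher. The balance of directions at S9 therefore rests partly on such entry.

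Counts by class are set against the 8.63% lower and 7.51% higher of all genes at S5. At that stage 14 of 52 tested R2R3 or 3R genes were lower and 3 higher, the median over the class being -0.62 on the log2 scale, and 6 of 20 single-repeat genes were lower and 1 higher. Of these lower single-repeat genes, VIT_03s0063g02620, VIT_04s0008g00900, VIT_16s0050g02530 and VIT_18s0001g12530 had under 10 counts in every ‘Nantaihutezao’ library. They entered the test through ‘Summer Black’, as did VIT_04s0023g03710 among the R2R3 genes and VIT_01s0137g00050 among the GARP genes. Such entry nearly sets the call in advance, so these class counts are not read against the shares of all genes. Of 31 GARP genes tested, 3 were lower and 2 higher. None of the 15 chromatin, splicing and other genes and none of the 8 telomere-repeat binding genes tested at S5 was called in edgeR's test, with 8 and 4 of them at an unadjusted p under 0.05. At S10, 7 of 38 R2R3 or 3R genes (18.4%) were lower and 5 (13.2%) higher, against 5.1% and 3.59% of all genes at that stage. No test compared the classes with each other. Among the 62 genes with a mean of at least 10 FPKM, 9 were called at some stage, where 26.2% of all genes tested at some stage were called. The share of all genes at that level was not computed.

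**Figure D2:**
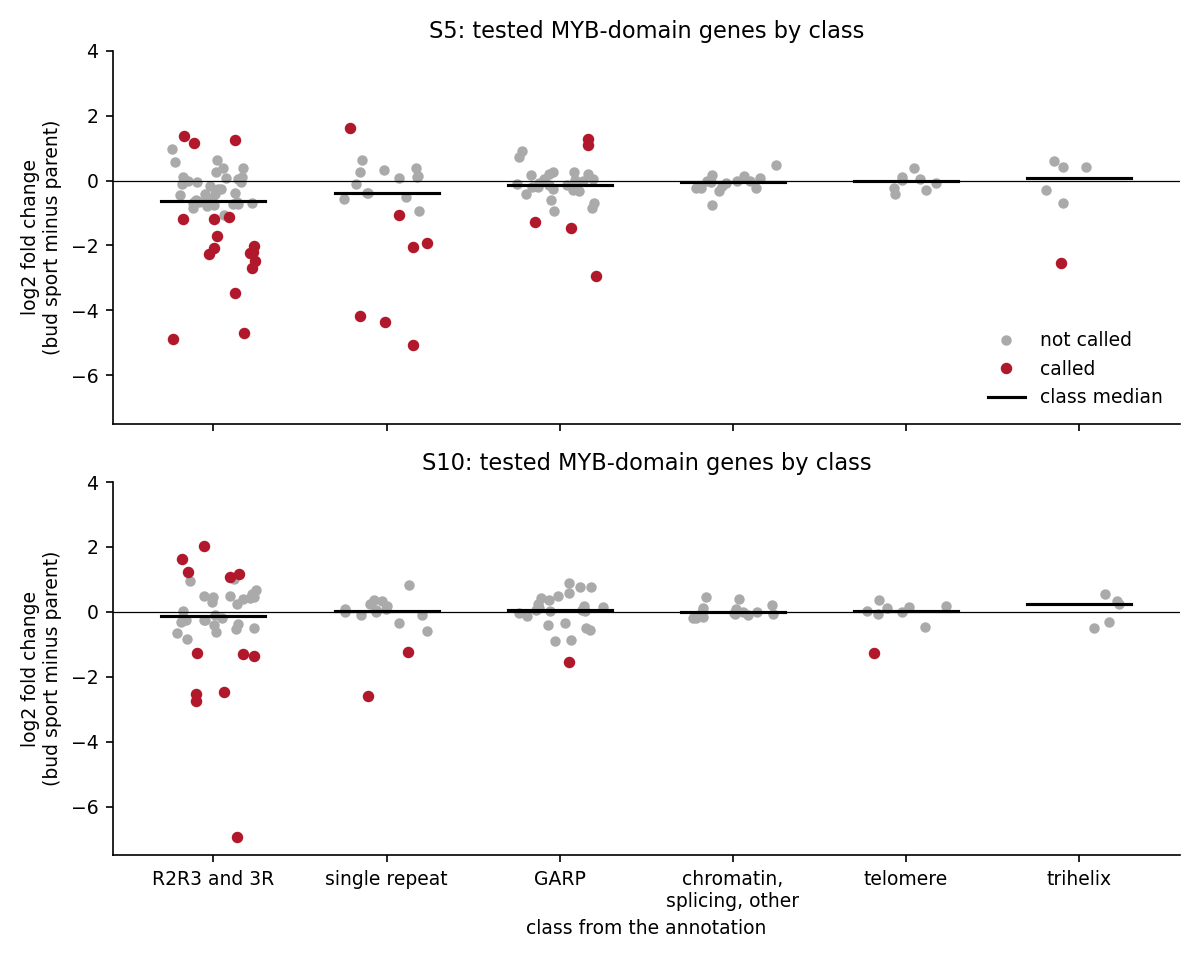
Log2 fold change (‘Nantaihutezao’ minus ‘Summer Black’) of each tested MYB-domain gene at S5 and S10, by class; red points were called, grey points were not, bars are class medians, and the 4 unclassified genes are not drawn. At S5 the R2R3 and 3R genes had a median of -0.62, and the chromatin, splicing and other genes held no called gene.

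Among the 237 genes kept here, VIT_07s0005g02480 on chromosome 7, an R2R3 gene with MYB86 of Arabidopsis as its best match, differed at the largest number of stages. It was lower in ‘Nantaihutezao’ at 5 of 6 stages. At S5 it was at 69.0, 69.0 and 67.3 CPM in replicates a, b and c of ‘Summer Black’ and at 13.9, 13.4 and 15.2 CPM in ‘Nantaihutezao’ (log2 fold change -2.27 ± 0.06 SE, FDR 2.71e-14). The gap closed at S6, where 11.0, 10.9 and 8.36 CPM in ‘Summer Black’ overlapped with 8.27, 8.44 and 8.30 CPM in ‘Nantaihutezao’ (-0.28 ± 0.12, FDR 0.0861). It opened again at S7, with 17.4, 16.1 and 14.2 CPM against 2.37, 2.85 and 1.89 CPM (-2.74 ± 0.15, FDR 6.45e-09). At S8 the log2 fold change was -1.66 ± 0.20 and at S10 -2.75 ± 0.39, with no overlap of the cultivars. At S9 both cultivars were low, 1.13, 1.60 and 1.06 CPM against 0.375, 0.587 and 0.586 CPM. The S9 call (log2 fold change -1.27, FDR 0.0380) was lost when any library of ‘Nantaihutezao’ or replicate b or c of ‘Summer Black’ was left out (FDR 0.0575 to 0.157), and with DESeq2, without a filter, with the replicate block and with glmTreat (0.0670, 0.0563, 0.0593 and 1).

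A second gene with MYB86 as its best match, VIT_17s0000g09080 on chromosome 17, was lower in ‘Nantaihutezao’ at S5, S6, S7 and S8. The non-redundant protein annotation calls its product MYB39 of grapevine. It is the one gene of the group in the study's list of quantitative PCR primers, and the forward primer listed for it is shown.
VIT_17s0000g09080 forward primer, 24 bases, 5′ to 3′: ctgcatcaggttctaggcaacagg
Its level at S5 was 20.3, 21.6 and 22.3 CPM in ‘Summer Black’ and 4.77, 4.59 and 5.94 CPM in ‘Nantaihutezao’ (log2 fold change -2.07 ± 0.11, FDR 1.13e-10). The largest difference came at S7, where the parent held 7.39, 5.80 and 5.80 CPM and the bud sport 0.539, 0.699 and 0.324 CPM (-3.59 ± 0.25, FDR 9.05e-08). The log2 fold change was -1.14 ± 0.21 at S6 and -3.32 ± 0.38 at S8, and the same value at S8 without replicate a of ‘Summer Black’ was -3.30. From S9 on it had too few counts to be tested.

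Another R2R3 gene differed from S7 onward. VIT_14s0108g01080 has MYB39 as its best match, a regulator of suberin deposition in Arabidopsis. Both cultivars had like levels at S5, 23.3, 25.0 and 22.9 CPM in ‘Summer Black’ and 26.2, 26.8 and 21.9 CPM in ‘Nantaihutezao’ (log2 fold change 0.08 ± 0.08, FDR 0.400). At S10 the parent was at 21.2, 19.6 and 23.0 CPM and the bud sport at 3.44, 4.22 and 3.97 CPM (-2.46 ± 0.11, FDR 2.89e-11). The log2 fold changes at the stages between were -1.16 ± 0.10 at S7, -1.28 ± 0.14 at S8 and -1.60 ± 0.16 at S9. In ‘Nantaihutezao’ the transcript fell from S5 to S10 (-2.69 ± 0.15, FDR 8.42e-14), whereas in ‘Summer Black’ the change was -0.16 ± 0.10 (FDR 0.162). Cultivar and stage interacted for this gene (FDR 1.16e-14).

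Small single-repeat proteins of the CPC, ETC1 and TRY type inhibit trichome formation and promote root hairs in Arabidopsis, and their 5 matches did not move together. The ETC1 match VIT_10s0116g01760 was lower from S7 to S10, but its S9 call (log2 fold change -1.06, FDR 0.0348) was lost without replicate a of ‘Summer Black’ (-0.89, FDR 0.0985). It stood at 4.85, 5.10 and 5.21 CPM in ‘Summer Black’ and 2.05, 1.72 and 2.10 CPM in ‘Nantaihutezao’ at S7 (log2 fold change -1.37 ± 0.17, FDR 2.20e-05). By S10 the parent had 1.29, 0.755 and 1.29 CPM and the bud sport 0.161, 0.321 and 0.0536 CPM, which is at most 6 counts in a library (-2.60 ± 0.53, FDR 0.000745). The CPC match VIT_12s0059g02360 was lower at S9, with 6.07, 4.80 and 4.42 CPM in ‘Summer Black’ against 1.61, 2.19 and 2.13 CPM (-1.35 ± 0.22, FDR 0.00151), and at S10 (-1.25 ± 0.26). At S5 the same gene had been 6.18, 6.38 and 5.32 CPM in the parent and 6.78, 8.59 and 7.84 CPM in the bud sport, a difference under the fold threshold (0.38 ± 0.13). The other genes of this type, VIT_10s0116g00500 (ETC1), VIT_16s0050g02530 (TRY) and VIT_15s0046g01130 (TRY), were named after their values were seen. VIT_10s0116g00500 was lower at S5 alone (means of 8.09 CPM in ‘Nantaihutezao’ and 16.9 CPM in ‘Summer Black’, log2 fold change -1.06), and at S10 it was at 3.06 and 4.56 CPM, under the fold threshold (-0.58, FDR 0.0138). VIT_16s0050g02530 was also lower at S5 alone (0.370 and 1.56 CPM, -2.05), and was not tested later, when its S10 means were 0.375 and 0.144 CPM. VIT_15s0046g01130 had at most 6 counts in a library and was not tested at any stage.

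VIT_08s0056g00800, annotated as grapevine MYB60, a regulator of stomatal opening in Arabidopsis, was lower in ‘Nantaihutezao’ at S7, S8 and S10. Its S10 levels were 4.52, 5.13 and 3.93 CPM in ‘Summer Black’ and 1.08, 0.481 and 0.805 CPM in ‘Nantaihutezao’ (log2 fold change -2.52 ± 0.27, FDR 1.12e-06). At S7 the log2 fold change was -1.24 ± 0.24 and at S8 -1.19 ± 0.20. The GARP gene VIT_12s0028g03100, named GPRI1 in the table and matching GLK1, an activator of chloroplast development in Arabidopsis, was lower at S5, S6 and S7. It was at 3.38, 4.62 and 3.62 CPM in ‘Summer Black’ at S5 and at 1.43, 1.21 and 1.54 CPM in ‘Nantaihutezao’ (-1.47 ± 0.22, FDR 2.56e-05). At S7 the parent libraries spread from 0.751 to 2.05 CPM and those of the bud sport from 0.108 to 0.216 CPM (-3.06 ± 0.52, FDR 0.000301). The chlorophyll-binding genes summed to 1020 to 1045 CPM in ‘Nantaihutezao’ and 1547 to 1725 CPM in ‘Summer Black’ at S7, and whether the cells of green tissue differed was not tested.

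**Figure D3:**
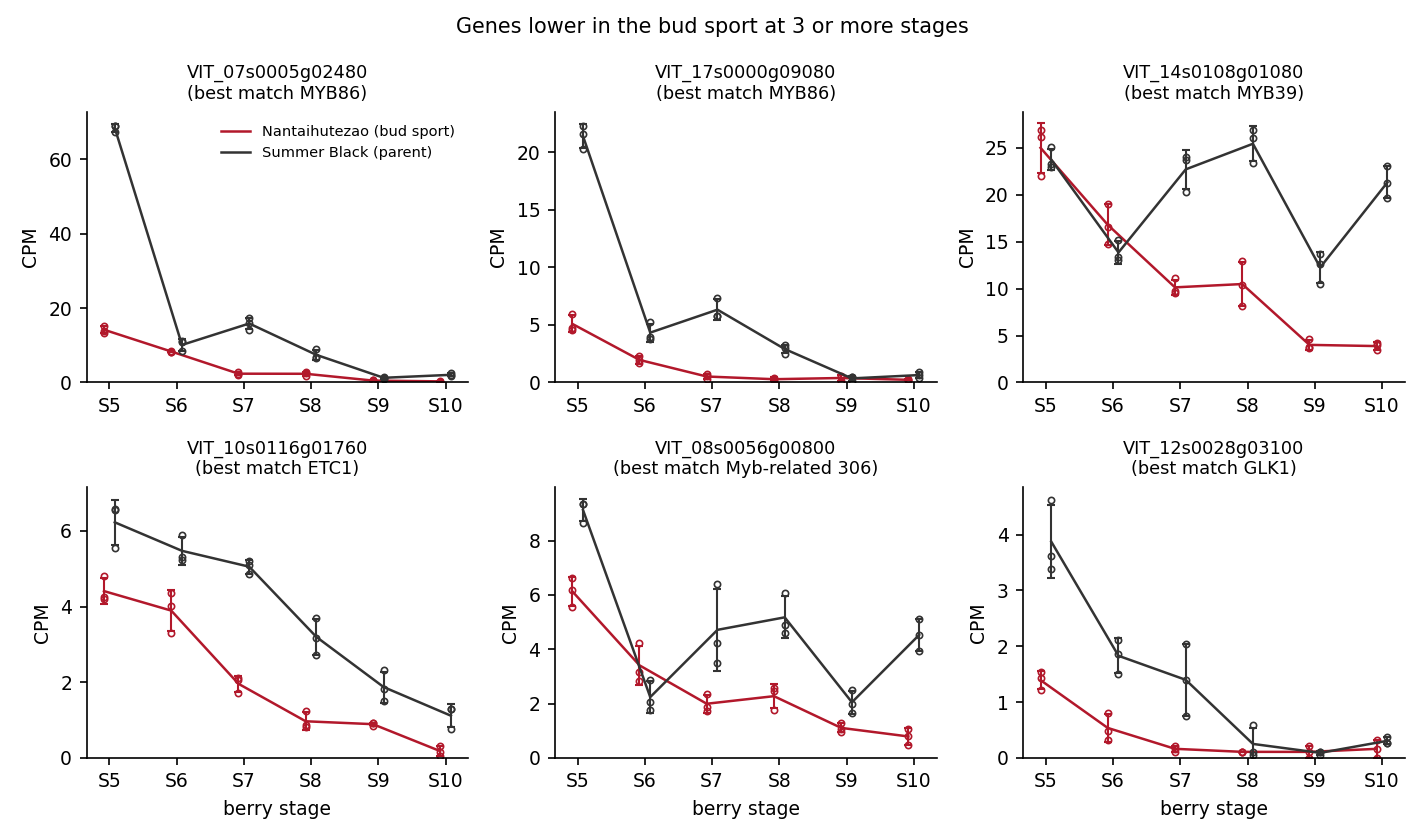
Level (CPM, linear axis from 0) of 6 genes lower in ‘Nantaihutezao’ (red) than in ‘Summer Black’ (black) at 3 or more stages; circles are libraries, lines join the means and bars are SD (n = 3). VIT_07s0005g02480 was near 69 CPM in the parent and 14 CPM in the bud sport at S5, and VIT_14s0108g01080 separated from S7 on.

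Response regulators of the B type, the transcription factors at the end of the cytokinin phosphorelay, did not move together. VIT_01s0011g04220, named APRR6 in the table and matching ARR1, was lower in ‘Nantaihutezao’ at S7, S8 and S10. At S8 it was at 1.72, 2.09 and 2.24 CPM in ‘Summer Black’ and at 0.644, 0.430 and 0.590 CPM in ‘Nantaihutezao’ (log2 fold change -1.85 ± 0.31, FDR 0.000924). At S5 its levels were higher in the bud sport, 7.15, 7.22 and 7.95 against 4.49, 3.93 and 5.22 CPM, but the log2 fold change of 0.71 ± 0.14 was under the threshold. VIT_11s0206g00060, matching ARR12, was the only gene called higher at S8, at 18.1, 18.6 and 20.4 CPM in ‘Nantaihutezao’ against 7.61, 10.9 and 9.88 CPM (1.004 ± 0.13, FDR 0.000115). Without replicate a of ‘Summer Black’ its log2 fold change was 0.86, and without replicate c of ‘Nantaihutezao’ 0.95, both under the fold threshold.

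The largest differences at S5 were in genes that the parent expressed at veraison and the bud sport hardly at all. VIT_14s0036g00460, an R2R3 gene with rice Myb4, a cold-response regulator, as its best match, was at 12.9, 11.9 and 11.8 CPM in ‘Summer Black’ and at 0.265, 0.264 and 0.689 CPM in ‘Nantaihutezao’ (log2 fold change -4.89 ± 0.22, FDR 2.10e-11). VIT_16s0022g01210, matching ODORANT1, which governs floral scent benzenoids in petunia, showed 12.1, 11.0 and 10.6 CPM against 0.583, 0.316 and 0.371 CPM (-4.70 ± 0.20, FDR 9.51e-12). After S5 neither cultivar had more than 7 counts of it in a library, and it was not tested.

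VIT_03s0063g02620, matching RADIALIS, which sets flower asymmetry in Antirrhinum, had 113 counts over the ‘Summer Black’ libraries at S5 and 3 over those of ‘Nantaihutezao’. That is a ratio of 37.8, with an exact 95% interval of 12.6 to 186 that covers counting error only. A second gene with rice Myb4 as its best match, VIT_00s0203g00170, was lower at S5 (4.02, 2.60 and 3.35 CPM in ‘Summer Black’, 0.583, 0.791 and 0.159 CPM in ‘Nantaihutezao’) and at S8 (1.45, 1.23 and 1.44 against 0.0536, 0.484 and 0.375 CPM, log2 fold change -2.15 ± 0.49). At S10 it had 45 counts over the parent libraries and 0 in every library of the bud sport, so that it was at least 15.1-fold lower, with 3 counts over the group as the floor. Of the 24 genes lower at S5, 13 could be tested at a later stage. At a later stage 8 were lower again and 2 were higher. The matching shares over all genes were not computed, so these counts are not read as particular to the group.

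Fewer genes were higher at veraison. The single-repeat gene VIT_04s0079g00410, named RVE1 in the table and matching LHY, morning components of the Arabidopsis clock, was at 70.8, 73.0 and 71.9 CPM in ‘Nantaihutezao’ and 24.2, 23.7 and 22.7 CPM in ‘Summer Black’ at S5 (log2 fold change 1.62 ± 0.05, FDR 2.97e-13). It remained above the parent in every library at the 5 later stages, with log2 fold changes of 0.31 to 0.75 that were under the fold threshold. The time of day of sampling was not stated. VIT_18s0001g09850, the MYB44 match, was at 162, 171 and 156 CPM against 65.8, 72.8 and 66.9 CPM at S5 (1.25 ± 0.05, FDR 1.91e-12). By S6 its order had turned, with 122, 126 and 126 CPM in ‘Nantaihutezao’ and 174, 182 and 175 CPM in ‘Summer Black’ (-0.51 ± 0.04, FDR 5.54e-07, under the fold threshold).

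VIT_05s0029g00060, matching APL, a determinant of phloem identity in Arabidopsis, was at 24.0, 20.9 and 25.2 CPM in the bud sport and 10.5, 8.18 and 10.2 CPM in the parent at S5 (log2 fold change 1.28 ± 0.10, FDR 2.22e-08). The GARP gene VIT_06s0004g05120, matching LUX of the evening complex of the Arabidopsis clock, was at 21.4, 22.4 and 20.5 CPM against 9.83, 10.5 and 9.53 CPM (1.11 ± 0.09, FDR 1.22e-08). VIT_11s0016g01320, whose best match is C1, the anthocyanin regulator of maize, was at 6.62, 5.01 and 5.94 CPM against 2.70, 2.55 and 2.56 CPM (1.17 ± 0.16, FDR 1.19e-05). The sixth gene, VIT_11s0016g03750, a 3R-type gene named after its values were seen, lay under 0.7 CPM in every library of that stage. None of the 6 genes higher at S5 was called at a later stage in edgeR's test, although the LHY match had an FDR under 0.05 at each of the 5 later stages. How many of all genes higher at S5 were called again was not computed.

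At S6 and S7 few further genes separated. VIT_19s0085g00890, the gene named APL in the table, was lower at S6, at 1.97, 1.22 and 1.5 CPM in ‘Summer Black’ and 0.534, 0.215 and 0.375 CPM in ‘Nantaihutezao’ (log2 fold change -2.04 ± 0.40, FDR 0.00103), and again at S7 (-1.70 ± 0.47). VIT_11s0016g04600, matching rice PCL1, a clock component, was lower at S6, with 1.28, 0.849 and 0.964 CPM against 0.427, 0.322 and 0.214 CPM (-1.66 ± 0.43, FDR 0.00676). The gene higher at S7 was VIT_19s0090g00590. Its best match, rice GAMYB, carries the gibberellin response of the cereal aleurone. It was at 7.17, 6.94 and 6.96 CPM in ‘Nantaihutezao’ and 4.04, 2.47 and 2.25 CPM in ‘Summer Black’ (1.26 ± 0.19, FDR 0.000113), and its levels stayed apart without overlap at S8, S9 and S10 with log2 fold changes of 0.68 to 0.83.

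Of the 5 genes higher in the bud sport at S9, 4 were R2R3 genes. VIT_07s0005g01950, VIT_01s0011g03730 and VIT_12s0028g00980 had under 10 counts in every ‘Summer Black’ library of that stage. These genes entered the S9 test through ‘Nantaihutezao’, which nearly set their calls in advance. VIT_07s0005g01950, matching an Antirrhinum protein that activates phenylpropanoid genes in flowers, was at 3.69, 2.35 and 2.72 CPM in ‘Nantaihutezao’ and 0.430, 0.267 and 0.372 CPM in ‘Summer Black’ at S9 (log2 fold change 3.02 ± 0.36, FDR 0.000192). It was called at S9 alone, the groups overlapped at S6, S7, S8 and S10, and the interaction of cultivar and stage had an FDR of 5.27e-08. A pair of genes matching MYB21, which acts in jasmonate-dependent stamen and petal growth in Arabidopsis, were higher at both S9 and S10.

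VIT_05s0077g00500, the first of them, was at 2.26, 2.03 and 2.47 CPM against 0.916, 0.755 and 0.485 CPM at S10 (log2 fold change 1.63 ± 0.32, FDR 0.000476). At S9 it was at 1.71, 0.908 and 2.29 CPM against 0.644, 0.0533 and 0.160 CPM (2.50 ± 0.63, FDR 0.0173). Without replicate a of ‘Summer Black’ the S9 difference was 3.86 (FDR 0.000757). The S9 call was lost without replicate a or c of ‘Nantaihutezao’ or b or c of ‘Summer Black’ (FDR 0.0550 to 0.0775). VIT_01s0011g03730, the second, was at 1.39, 1.23 and 0.852 CPM against 0.0537, 0.320 and 0.266 CPM at S9 (2.41 ± 0.53, FDR 0.00873), and had a log2 fold change of 1.16 ± 0.42 at S10. VIT_12s0028g00980, a GARP gene outside the naming rule and named after its values were seen, was the fifth gene higher at S9, at 0.910, 0.908 and 1.01 CPM against 0.268, 0.320 and 0.0532 CPM.

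For 2 genes (1.42% of those tested, against 2.51% of all genes) calls were made in both directions. The higher calls of both genes were lost with glmTreat, at FDR 1 and 0.906 for VIT_05s0020g01100 at S9 and S10 and 0.143 for VIT_14s0036g00460 at S10. VIT_05s0020g01100, which matches MYB86 and is annotated by its product as grapevine MYB5, was lower at S5, at 3.13, 3.48 and 2.65 CPM in ‘Nantaihutezao’ and 9.41, 10.5 and 10.8 CPM in ‘Summer Black’ (log2 fold change -1.72 ± 0.14, FDR 1.91e-08). It was higher at S10, at 4.19, 4.60 and 4.77 CPM against 2.59, 1.35 and 1.83 CPM (1.22 ± 0.23, FDR 0.000340), and at S9 (1.16 ± 0.19). Between S5 and S10 its change in the bud sport was under the fold threshold (0.54 ± 0.17), and it fell in the parent (-2.41 ± 0.23). VIT_14s0036g00460, the rice Myb4 match, went from the strong S5 difference above to 1.13, 0.802 and 0.805 CPM in ‘Nantaihutezao’ against 0.108, 0.270 and 0.269 CPM in ‘Summer Black’ at S10 (2.04 ± 0.49, FDR 0.00260). The S10 difference rests on 21 counts at most in a library. Across the group, 94 of 141 genes (66.7%) showed an interaction of cultivar and stage at an FDR under 0.05, against 63.7% of all 16846 genes tested.

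**Figure D4:**
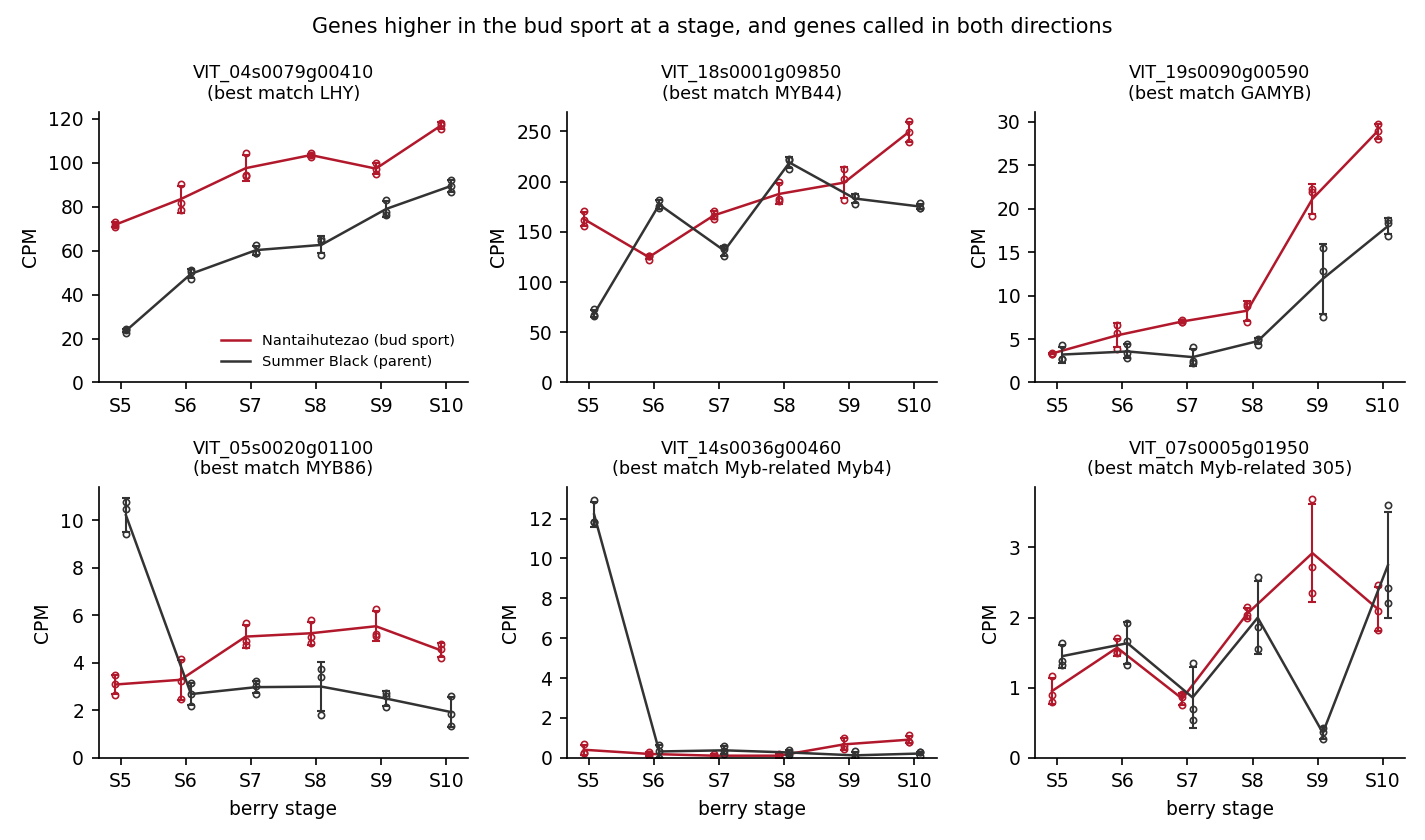
Level (CPM, linear axis from 0) of 6 genes that were higher in ‘Nantaihutezao’ (red) than in ‘Summer Black’ (black) at a stage or called in both directions; circles are libraries, lines join the means and bars are SD (n = 3). VIT_05s0020g01100 and VIT_14s0036g00460 were lower in the bud sport at S5 and higher at S10.

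Within each cultivar the group as a whole contained more falling than rising genes from S5 to S10. In ‘Nantaihutezao’, 10 of 129 tested genes (7.75%) rose and 37 (28.7%) fell, against 11.2% and 17.6% of all genes. In ‘Summer Black’, 12 of 138 (8.7%) rose and 60 (43.5%) fell, against 13.0% and 19.2%. The median change (log2) was 0.07 in ‘Nantaihutezao’, opposite in sign to the balance of its calls, and -0.41 in ‘Summer Black’, with 0.01 and -0.03 over all genes. Among R2R3 and 3R genes, 6 rose and 22 fell of 49 tested in ‘Nantaihutezao’, and 4 rose and 34 fell of 53 in ‘Summer Black’. Of the 47 called genes of ‘Nantaihutezao’ 23 had under 10 counts in every library of one stage, as had 27 of the 72 of ‘Summer Black’. Such genes entered the test through the other stage, and 23 of 23 tested were called in ‘Nantaihutezao’ and 27 of 28 in ‘Summer Black’.

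Of 126 genes tested in both cultivars, 37 were called in both, 23 in the parent alone and 8 in the bud sport alone. These were 29.4%, 18.3% and 6.35% of the genes, against 18.9%, 12% and 9.24% of all 16018 genes tested in both. Both calls went the same way in these 37 genes, 4 up and 33 down. So did those of 2893 of the 3032 genes of the whole table called in both, so this agreement is not particular to the group. The 3R-type gene VIT_15s0048g02120, named ATMYB3R2 in the table and related to activators of cell division genes, rose the most in both cultivars, by 3.55 ± 0.48 on the log2 scale in ‘Nantaihutezao’ and 3.41 ± 0.71 in ‘Summer Black’. It reached 2.37, 2.62 and 1.45 CPM in the bud sport and 1.08, 1.08 and 0.861 CPM in the parent at S10 (difference 1.08 ± 0.31, FDR 0.00978). That call was lost without replicate b of ‘Nantaihutezao’ (log2 fold change 0.91) or replicate c of ‘Summer Black’ (0.98).

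VIT_19s0090g00590, the GAMYB match, rose by 3.11 ± 0.13 to 28.0, 29.8 and 29.0 CPM in ‘Nantaihutezao’ and by 2.48 ± 0.24 to 16.9, 18.4 and 18.7 CPM in ‘Summer Black’. The ARR12 match VIT_11s0206g00060 rose by 2.78 ± 0.10 and 1.61 ± 0.12, to 43.5, 39.8 and 40.4 CPM and 22.4, 24.7 and 25.4 CPM. VIT_16s0039g01900, named KAN3 in the table and related to organ polarity regulators of Arabidopsis, rose by 1.46 ± 0.07 in ‘Nantaihutezao’, and in ‘Summer Black’ the change of 0.73 ± 0.18 was under the threshold. Replicate a of ‘Summer Black’ at S9 held 22.1 CPM of this gene where b and c held 46.4 and 45.5 CPM. VIT_04s0079g00410, the LHY match, rose by 1.93 ± 0.06 in the parent, and VIT_06s0004g05120, the LUX match, by 1.90 ± 0.08, while in the bud sport, where both began higher, the changes were 0.70 ± 0.05 and 0.67 ± 0.08.

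**Figure D5:**
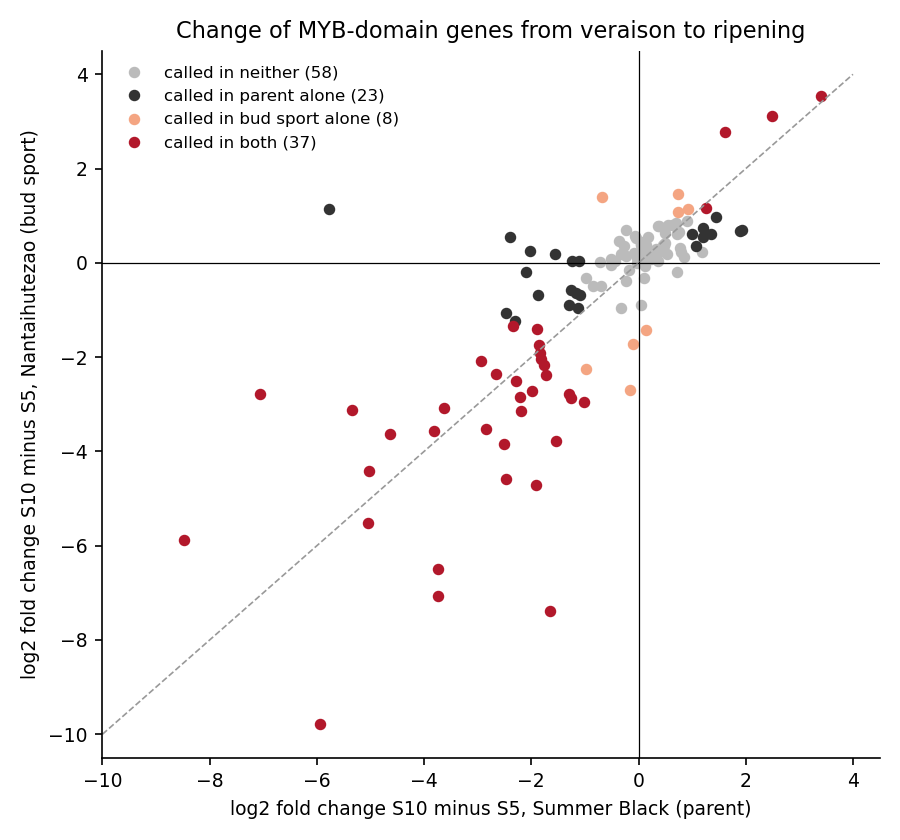
Log2 fold change from S5 to S10 in ‘Summer Black’ (x axis) and ‘Nantaihutezao’ (y axis) of the 126 MYB-domain genes tested in both; colours give the cultivar in which a gene was called and the dashed line marks equal change. The 37 genes called in both lie in the lower left (33) and upper right (4); the far values belong to genes with no or few counts at S10, whose fitted values depend on a prior count.

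The largest falls, by which these genes were named, included relatives of flavonoid regulators. VIT_11s0016g01320, VIT_11s0016g01300, VIT_17s0000g02650 and VIT_12s0134g00490 had 0 or 1 counts over the ‘Nantaihutezao’ libraries at S10. They entered that test through S5, as VIT_11s0016g01320 and VIT_11s0016g01300 did in ‘Summer Black’, which nearly set their calls in advance. Whether such relatives fell more often than other genes was not tested. VIT_11s0016g01320, the C1 match, declined from 6.62, 5.01 and 5.94 CPM at S5 in ‘Nantaihutezao’ to 0 counts in all 3 libraries at S10, at least 109-fold lower. In ‘Summer Black’ it went from 147 counts over the group at S5 to 2 at S10, a ratio of 72.4 (exact 95% interval 19.7 to 603). On the same chromosome, VIT_11s0016g01300, matching TT2, the seed coat tannin regulator of Arabidopsis, fell from 1.54, 1.002 and 1.75 CPM to 1 count in ‘Nantaihutezao’ (ratio 79.9, 14.0 to 3195). In ‘Summer Black’ it fell from 1.96, 2.76 and 2.40 CPM to 0, at least 44.0-fold lower. VIT_17s0000g02650, matching the repressor MYB6, fell from 124 counts to 1 in ‘Nantaihutezao’ (ratio 122, 21.6 to 4871) and by 3.74 ± 0.43 on the log2 scale in ‘Summer Black’. VIT_12s0134g00490, annotated as a grapevine MYB4 repressor, was at least 20.7-fold lower at S10 than at S5 in ‘Nantaihutezao’, and fell by 1.66 ± 0.51 in ‘Summer Black’. VIT_16s0022g01210, the ODORANT1 match, fell in the parent by 7.16 ± 0.41. In the bud sport it was already low at S5.

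R2R3 proteins of flavonoid and epidermal regulation act in complexes with bHLH proteins and a WD40 protein. The 20 genes annotated as bHLH proteins with the MYC-type N-terminal domain or as TTG1 were therefore counted beside the group. None was higher in ‘Nantaihutezao’ at any stage in edgeR's test or in DESeq2, with 0 to 3 of them per stage higher at an unadjusted p under 0.05. Of all genes, 7.51% were higher at S5 and 2.69% to 3.59% at the later stages. With 12 to 15 of these genes tested per stage, a count of 0 lies near those shares and is not read as particular to them. At S5, 5 of 15 tested were lower, at S6 2 of 13, at S8 2 of 13 and at S9 1 of 13, where 8.63%, 3.89%, 3.76% and 1.85% of all genes were lower. DESeq2 called 0 lower at S9. None was lower at S7 and S10, with 6 and 5 lower at an unadjusted p under 0.05. At S6 that unadjusted count in edgeR was 10 lower and 0 higher of 13. The 5 at S5, named after their values were seen, match bHLH155, bHLH14, EMB1444, LHW and MYC2. The flavonoid-type partners were not among them. TT8, VIT_07s0104g00090, an activator of tannin genes in the Arabidopsis seed coat, was at 86.2, 94.3 and 90.4 CPM in ‘Nantaihutezao’ and 78.4, 73.4 and 74.7 CPM in ‘Summer Black’ at S5, above the parent in every library but under the fold threshold (log2 fold change 0.26, FDR 0.000108). VIT_15s0046g02560, matching GLABRA 3, a trichome regulator in Arabidopsis, was likewise above it (0.38, FDR 0.000285). Cultivar and stage interacted for TT8 and this gene (FDR 8.61e-11 and 0.0105 in edgeR's test), so the S5 values do not stand for the later stages.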

How the data were processed

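Per the methods, RNA libraries (TruSeq, HiSeq X-ten) were filtered, aligned to the Vitis vinifera genome with TopHat 2 and quantified; the counting program and the build are not given in the sources used here. The authors deposited raw read counts per gene and library, and FPKM values from Cuffdiff in the same table. The deposited columns of pairwise DESeq fold changes and FDR, some under headers mixing libraries of both cultivars at S6, were not used. FPKM served only to compare levels between genes.

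Genes passing filterByExpr (minimum count 10, minimum total 15) were scaled by TMM and tested with edgeR 4.0.16 quasi-likelihood tests (limma 3.58.1, R 4.3.3) within each stage (6 libraries); the interaction used 1 model of all 36, and S10 against S5 all libraries of that cultivar. CPM are TMM-scaled. The SE is the absolute log2 fold change divided by the square root of F. A fold against 0 used a floor of 3 counts over the group. Scripts were tested on simulated data. Alternatives were DESeq2 1.42.0, glmTreat, upper-quartile scaling, no filter, other libraries in the fit, the replicate letter as a block, and leaving out each library. Tables and figures used Python 3.11.15, pandas 2.3.3, numpy 2.4.6, scipy 1.17.1 and matplotlib 3.10.9.

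Named genes were those called one way at 5 or 6 stages, the 3 highest and 3 lowest called at each stage whose mean reached 1 CPM in either cultivar, the 5 of highest mean CPM, the 4 largest rises and falls from S5 to S10 per cultivar, and those called in both directions. The genes, classes and lists were chosen with earlier results of these data known. Names and best matches come from the deposited annotation columns, and the roles given with them are general background on the matched proteins. A name was held there by 43 of the 237 genes, and 135 matched a RefSeq gene by NCBI identifier. Reads shared between near-identical genes could not be followed. Promoter and protein sequences were not used here.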

Additional observations from a re-analysis of the deposited data

Results flagged for a closer look

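For 2 genes the cultivar difference was called in opposite directions at different stages and the interaction of cultivar and stage passed its test. VIT_14s0036g00460 (best match rice Myb4), lower in ‘Nantaihutezao’ at S5 and higher at S10, had an interaction FDR of 6.48e-09 in edgeR's test over all 36 libraries. VIT_05s0020g01100 (best match MYB86), lower at S5 and higher at S9 and S10, had an interaction FDR of 1.10e-10. With glmTreat the higher calls of both genes were lost.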

How the results depend on the processing

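Over all alternatives, 173 counts of genes were within 1.5 times the value reported and 26 were not. Of the calls of single named genes, 16 were lost under 1 alternative or more, 12 of them under glmTreat alone, and 0 changed direction. With glmTreat, which tests against a fold change of 2, the higher and lower genes numbered 3 and 19 at S5, 0 and 0 at S6, 0 and 4 at S7, 0 and 2 at S8, 1 and 1 at S9, and 0 and 5 at S10, and 6 genes rose from S5 to S10 in ‘Nantaihutezao’. With all 36 libraries in one fit, 2 genes were higher at S7, and 16, 7 and 17 were lower at S8, S9 and S10. DESeq2 left 2 genes lower at S9.

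Leaving out 1 library gave 6 to 8 higher and 25 to 27 lower genes at S5, 0 and 5 to 8 at S6, 1 to 2 and 9 to 14 at S7, 0 to 1 and 8 to 9 at S8, 3 to 7 and 2 to 5 at S9, and 3 to 5 and 9 to 13 at S10. The 2 higher genes at S7 came without replicate b of ‘Nantaihutezao’ and the 9 lower genes without replicate a of ‘Summer Black’. The S9 count of 2 lower genes came without any 1 library of ‘Nantaihutezao’, and the S10 count of 3 higher genes without its replicate b. The interaction count of 94 became 68 to 83 without 1 replicate letter. Rises and falls from S5 to S10 numbered 10 to 11 and 39 to 41 in ‘Nantaihutezao’, and 11 to 13 and 57 to 62 in ‘Summer Black’.

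The replicate letters did not pair the samples, with correlations of same-letter deviations from -0.103 to 0.12. With the letter as a replicate block, 2 genes were lower at S9, 4 were higher at S10 and 96 showed the interaction. The planned look at promoter and protein sequences was not run. Genes with few counts in one cultivar limit the precision of the folds, and a depth of 15323095 reads or more left 96 of the 237 genes untested.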
